A study of Mus musculus with 4 samples.

Results

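The genes described here are 7 members of the canonical Wnt pathway measured in single mouse embryonic stem cells (mESCs): the Tcf/Lef factors Tcf7l1, Tcf7l2, Tcf7 and Lef1, the feedback targets Axin2 and Sp5, and Ctnnb1. They were taken by symbol from the 32285 genes of the matrix, and all 7 were found. The cells came from the male line E14tg2a.4, with 2 samples labelled WT and 2 labelled Srrm2 hKO, a line carrying a gene trap in 1 allele of the splicing factor gene Srrm2. The hKO line is a single gene-trap ES cell line (CG0630). According to the study's methods, both lines were grown with serum and LIF and moved to serum-free medium with LIF before collection. The labels give 24 h or 72 h in serum-free medium, while the study's single-cell methods give another length of growth. Transcripts were counted at their 3′ ends as unique molecular identifiers (UMIs). All 4 libraries share 1 matrix, barcodes are marked 1 to 4 by library, and neither the labels nor the files tie a number to WT or hKO. Levels are therefore given by library number, and no comparison of hKO with WT was made. The labels name 2 replicates of each line, but these cannot be assigned to library numbers. Each library is therefore treated as 1 culture, so every interval below covers counting error only and no p-value is given.

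In the canonical pathway, a Wnt ligand bound to a Frizzled receptor and an Lrp co-receptor stops the destruction complex from degrading β-catenin, the product of Ctnnb1. β-catenin then enters the nucleus and binds DNA-bound Tcf/Lef proteins. In mESCs, Tcf7l1 is best known as a repressor of naive pluripotency genes such as Esrrb and Nanog, which β-catenin relieves, whereas Lef1 and Tcf7 act mainly as activators with β-catenin. Axin2, a scaffold of the destruction complex, and Sp5, a zinc finger factor, are textbook direct targets that feed back on the pathway. Much of the control of β-catenin acts on the protein and is not measured in transcript counts.

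On the GRCm38 assembly (GENCODE M21 annotation) the members are protein-coding genes on 6 chromosomes. Tcf7l1 lies at chr6:72626378-72789254 on the minus strand and Tcf7 at chr11:52252371-52283014 on the minus strand. The others are on the plus strand: Tcf7l2 at chr19:55741820-55933654, Lef1 at chr3:131110471-131224356, Axin2 at chr11:108920349-108950783, Sp5 at chr2:70474923-70477729 and Ctnnb1 at chr9:120929216-120960507. Ppnr, a sense-intronic gene of the matrix, shares the strand of Tcf7l2, so their reads can be confused. Sp5 overlaps no annotated gene.

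Promoters are shown because Sp5 and Axin2 are pathway targets and Lef1 is the member with the widest range between libraries. They hold the 250 bases before the start site in RefSeq (GRCm38.p6), printed 5′ to 3′ along the gene. Capitals mark matches to the Tcf/Lef consensus, searched on both strands in its variants CTTTGAA and also CTTTGAT and also CTTTGTA and also CTTTGTT. These motifs do not overlap one another in the matches shown.
Sp5, chr2:70474673-70474922, plus strand: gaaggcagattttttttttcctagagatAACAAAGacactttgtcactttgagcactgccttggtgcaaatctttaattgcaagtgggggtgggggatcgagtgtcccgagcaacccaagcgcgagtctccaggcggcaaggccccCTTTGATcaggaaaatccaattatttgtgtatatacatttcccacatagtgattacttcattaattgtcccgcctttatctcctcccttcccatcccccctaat
Axin2, chr11:108920099-108920348, plus strand: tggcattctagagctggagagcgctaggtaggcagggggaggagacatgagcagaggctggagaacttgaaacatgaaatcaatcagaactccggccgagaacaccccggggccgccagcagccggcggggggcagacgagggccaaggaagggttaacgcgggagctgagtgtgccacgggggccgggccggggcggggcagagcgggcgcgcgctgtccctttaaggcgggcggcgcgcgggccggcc
Lef1, chr3:131110047-131110296, plus strand: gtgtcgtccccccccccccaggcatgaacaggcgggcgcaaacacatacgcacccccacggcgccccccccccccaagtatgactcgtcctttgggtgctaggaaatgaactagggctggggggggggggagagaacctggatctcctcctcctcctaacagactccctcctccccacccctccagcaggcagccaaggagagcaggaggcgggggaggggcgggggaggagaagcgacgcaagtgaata
Sp5 held 2 matches, 1 starting 222 bases and 1 starting 104 bases upstream of its start site, and the windows of Axin2 and of this Lef1 start site held 0. Among the members' other start sites, 1 of Tcf7l2 and 1 of Lef1 held a single match. A match was present in 16.9% of all 32851 promoter windows of 300 bases in the table. These letters say nothing about binding in these cells.

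The cell filter described in the study, as rebuilt here, left 31989 of 41142 barcodes, which is not the study's own cell number, between 7464 and 8514 per library, with 166839268 to 200180473 UMIs and medians of 18378 to 21898 UMIs per cell. Between 11 and 26 kept cells of each pair of libraries carried the same barcode sequence. The general pluripotency list (Pou5f1, Sox2, Sall4 and Utf1) summed to 1636 to 1954 CPM (UMIs scaled to a total of 1000000) in every library. Other lists were low, with 3.48 to 5.03 CPM for 8 primitive streak genes, 8.82 to 11.1 for 8 primitive endoderm genes, 2.22 to 10.1 for 5 trophectoderm genes and 2.29 to 12.1 for 7 fibroblast genes, of which at most 1 gene per list was at 0 in a library. The libraries did not hold the same states. The naive list of 10 genes (Nanog, Klf4, Klf2, Klf5, Esrrb, Tfcp2l1, Zfp42, Tbx3, Nr5a2 and Prdm14) stood at 1930, 1575, 1402 and 931 CPM in libraries 1 to 4, and the formative list of 8 genes (Fgf5, Pou3f1, Otx2, Dnmt3a, Dnmt3b, Zic2, Sall2 and Grhl2) at 182, 690.1, 311 and 1056 CPM. The targeted gene Srrm2 was at 387, 533, 238 and 356 CPM and assigned no library.

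Which of the 7 genes differed between the cultures was asked first. Lef1 differed most, by 5.94-fold (5.55 to 6.37), followed by Sp5 at 3.07-fold and Tcf7l1 at 2.71-fold. A ratio of at least 1.5 between the highest and the lowest library was found for 5 of the 7 genes, all but Axin2 and Ctnnb1. Of all 14525 genes with at least 200 UMIs, 51.7% passed the same ratio, so the count of members is near the background.

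Tcf7l1, the repressor of naive genes, was at 31.7, 47.5, 57.9 and 85.7 CPM in libraries 1 to 4. No pair of these levels overlapped in its counting interval, and library 4 stood 2.71-fold (2.62 to 2.79) above library 1. Over all cells, 5 naive genes known as its targets had their lowest level in library 4, where Tcf7l1 was highest. Esrrb, a nuclear receptor of the naive network, was at 66.9, 52.5, 49.2 and 30.4 CPM in libraries 1 to 4. Nanog, a homeobox factor, was at 154, 130.02, 103 and 61.9 CPM. Tfcp2l1 ran from 98.8 to 30.6 CPM between libraries 1 and 4, Klf2 from 547 to 222 CPM and Nr5a2 from 24.7 to 15.1 CPM. Nr5a2 was highest in library 2, at 30.8 CPM. The other genes followed the order of the whole naive list, from high in library 1 to low in library 4, so this order is not particular to them. The order is described over 4 cultures that also differed in their share of naive cells.

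Lef1 was at 5.66, 30.6, 10.9 and 33.6 CPM in libraries 1 to 4. Libraries 2 and 4 were high and libraries 1 and 3 low, with no overlap. Tcf7, the other activator, followed the same order at 14.9, 26.6, 17.1 and 28.5 CPM, but with a range of only 1.91-fold (1.82 to 2.01). The order of libraries 1, 3, 2 and 4 from low to high was held by 19.4% of all tested genes.

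Tcf7l2 is the least abundant of the 4 factors in libraries 2 and 4 by UMIs, and a factor better known from the intestine. It was at 7.82, 10.1, 11.2 and 13.6 CPM, a range of 1.74-fold (1.63 to 1.86) in the library order of Tcf7l1. That order depended on cluster 5, described below, which was high in a list of keratin and contractile genes. Without its cells Tcf7l2 was at 6.94, 9.93, 6.29 and 12.9 CPM, so library 3 was then the lowest and the range 2.05-fold. Sp5 had another pattern, with 5.69, 6.35, 12.3 and 4.03 CPM, and library 3 stood apart from the other 3. Its levels in libraries 1 and 2 lay close together, with library 2 the higher by 1.12-fold (1.03 to 1.22), a direction that turned with size factors (6.20 and 6.19 CPM). Axin2 had a narrow range of 1.40-fold (1.29 to 1.52), at 5.77, 7.78, 6.43 and 5.55 CPM. Libraries 1 and 4 could not be ordered for Axin2 at this depth, since library 4 over library 1 gave 0.96 (0.88 to 1.05). The 2 target genes therefore did not share their order across the libraries. Ctnnb1 was the most abundant member, at 152, 199, 160.2 and 187 CPM, with a range of 1.31-fold (1.29 to 1.33). Scaled by size factors, library 3 and not library 1 was the lowest for Ctnnb1, and the Tcf7l2 range, 1.5001-fold, only just reached the fold of 1.5.

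**Figure D1:**
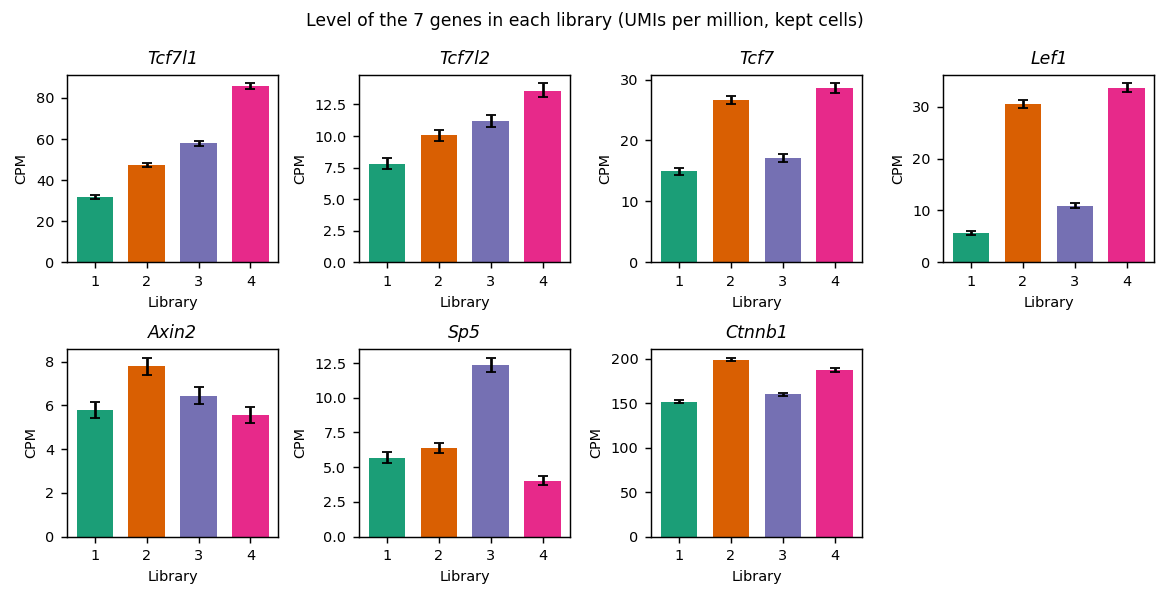
Level of each gene in CPM (y axis from 0) in libraries 1 to 4 (x axis), with bars for all kept cells and error bars for exact 95% Poisson intervals. Lef1 is high in libraries 2 and 4, Sp5 is highest in library 3 at 12.3 CPM, and Tcf7l1 is lowest in library 1 and highest in library 4.

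Cells were grouped into 7 clusters with the Wnt genes left out of the clustering, so that the members did not define them. Of these, 5 clusters held at least 2% of the cells, and 9 combinations of library and cluster had at least 100 cells. Cluster 1 made up 94.2% of library 1 and 73.4% of library 3, was led by Slc11a1 and Catip, and had naive list sums of 2043 and 1819 CPM. Cluster 2, led by Spic, made up 80.7% of library 2 and 3.09% of library 4. Cluster 4, which had 46.8% of library 4, was also high in the naive list (1542 CPM). Cluster 3, led by Spon1 and the formative gene Fgf5, had 18.4% of library 2 and 48.2% of library 4 and formative list sums of 1694 and 1506 CPM. Cluster 5 was led by Gzme, Ctla2a and Acta2 and had 5.47% of library 1 and 25.9% of library 3. Its keratin and contractile list (Krt8, Krt18, Acta2, Tagln, Cnn1, Myl9, Tpm2 and Acta1) reached 953 and 3136 CPM. In cluster 1 of the same libraries it was at 34.4 and 63.6 CPM.

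Among the clusters with at least 100 cells in a library, the one highest in the formative list was set against the one highest in the naive list, to ask which members differ between states within 1 culture. Among these clusters the one so chosen was also the highest in the keratin and contractile list, and in cluster 5 of library 3 that list far exceeded the formative one (3136 against 561 CPM). Lef1 was the member higher at least 1.5-fold in all 4 libraries, and 0 members were lower. In library 1, Tcf7l2, Tcf7 and Lef1 were higher in cluster 5 than in cluster 1 (3 of 7, where 22.5% of all tested genes were higher and 17% lower). In library 2, Lef1 was higher in cluster 3 than in cluster 2 (1 of 7, against 19.8% of genes higher and 12.6% lower). In library 3, Tcf7l2 and Lef1 were higher in cluster 5 than in cluster 1 (2 of 7, against 26.7% higher and 13% lower). In library 4, Lef1 and Sp5 were past the fold in cluster 3 over cluster 2 (2 of 7, against 22.9% higher and 15% lower), but Sp5 reached the minimum through cluster 3 alone and its interval included 1, which leaves Lef1. The median log2 ratio of the members was 0.31, 0.39, 0.21 and 0.38 in libraries 1 to 4, compared with 0.11, 0.10, 0.14 and 0.08 over all genes tested. Counts of this size are not far from the background of each contrast.

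In library 1, Lef1 had 13.9 CPM in cluster 5 against 4.996 CPM in cluster 1, a ratio of 2.78 (2.35 to 3.28). In library 2 it had 61.2 CPM in cluster 3 against 23.1 CPM in cluster 2, a ratio of 2.65 (2.52 to 2.79). Library 3 had 16.2 CPM against 8.34 CPM in clusters 5 and 1, a ratio of 1.94 (1.77 to 2.13). In library 4, clusters 2, 4 and 3 had 22.4, 25.8 and 42.1 CPM. The formative cluster 3 thus had the highest Lef1 levels of all combinations. Clusters 2 and 4, high in the naive list, were above cluster 5 as well, but they lie in other libraries than cluster 5. They were not low in the formative list, at 444 and 469 CPM in cluster 2 of libraries 2 and 4 and 619 CPM in cluster 4. That list was at 142 and 193 CPM in cluster 1 and at 667 and 561 CPM in cluster 5 of libraries 1 and 3. Cluster 3 over cluster 4, a comparison added after seeing the data because cluster 2 has only 231 cells in library 4, gave a ratio of 1.63 (1.54 to 1.72). Against cluster 2 the ratio was 1.88 (1.51 to 2.36).

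Tcf7l2 followed cluster 5 instead. Its levels in clusters 5 and 1 of library 1 were 18.6 and 6.96 CPM, a ratio of 2.67 (2.31 to 3.08). In library 3 they were 21.5 and 6.32 CPM, a ratio of 3.40 (3.10 to 3.73). These cluster 5 levels exceeded those of all other combinations, which reached 14.7 CPM in cluster 3 of library 4. That ranking, too, sets clusters of different libraries side by side. Cluster 3 over cluster 2 gave a ratio of 1.31 (1.18 to 1.45) in library 2 and 1.24 (0.91 to 1.71) in library 4. Cluster 5 also had more fibroblast and trophectoderm transcripts, with list sums of 35.4 and 28.7 CPM in library 3 compared with 0.989 and 1.24 CPM in cluster 1. It was deeper too, with a median of 24303 UMIs per cell against 18494 in cluster 1 of library 3. Their part in the Tcf7l2 levels was not tested.

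Tcf7 leaned the same way as Lef1 in every library with smaller ratios, of 1.70 (1.501 to 1.92), 1.43 (1.34 to 1.52), 1.32 (1.23 to 1.42) and 1.30 (1.05 to 1.62) in libraries 1 to 4. Tcf7l1 had ratios of 1.24, 1.30, 0.91 and 1.39 and passed 1.5 in none. The naive genes given beside it belong to the list that chose these clusters, and their levels are given only as a description. Esrrb, for example, was at 67.2 and 11.3 CPM in clusters 1 and 5 of library 3, where Tcf7l1 was at 59.8 and 54.3 CPM. Ctnnb1 stayed between 0.96 and 1.16 in the 4 contrasts.

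The target genes were uneven. Axin2 had ratios of 0.88 (0.67 to 1.14), 1.39 (1.23 to 1.56), 0.78 (0.68 to 0.90) and 0.81 (0.54 to 1.26) in libraries 1 to 4. Sp5 had ratios of 0.78 (0.59 to 1.02), 0.77 (0.66 to 0.90), 1.013 (0.92 to 1.11) and 1.76 (0.92 to 3.87). The last rests on 9 Sp5 UMIs in cluster 2 of library 4, and cluster 3 over cluster 4 gave 1.17 (1.00 to 1.37). Without cells above 2 times the median UMI count of their library, the Sp5 ratio in library 1 was 0.51 and past the fold in the lower direction. At a finer clustering (resolution 0.4) the Sp5 ratio in library 3 became 1.68. No direction between states is therefore given for Sp5.

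**Figure D2:**
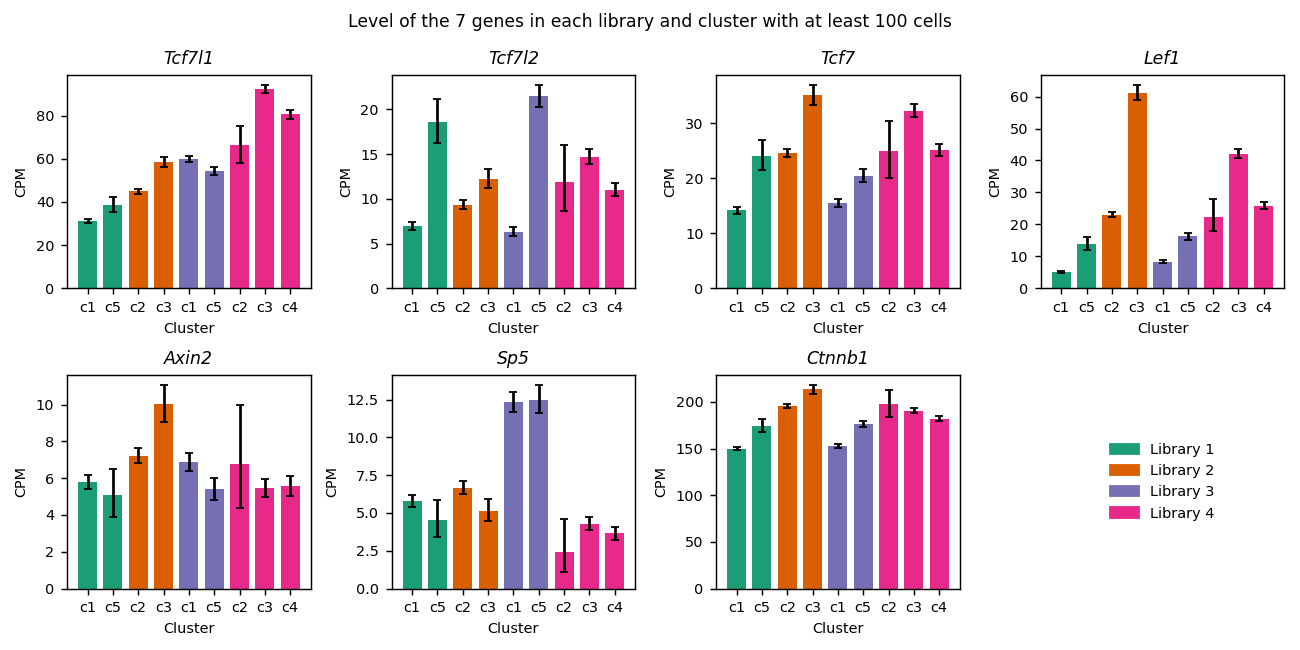
Level of each gene in CPM (y axis from 0) in the 9 combinations of library (colour) and cluster (c1 to c5, x axis) with at least 100 cells, with exact 95% Poisson intervals. Lef1 peaks in cluster 3 (61.2 and 42.1 CPM), Tcf7l2 in cluster 5 (18.6 and 21.5 CPM), and Sp5 is high in both clusters of library 3.

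Libraries that share a cluster were also compared inside it. A shared cluster did not have the same make-up in both libraries. The keratin and contractile list was at 953 and 3136 CPM in cluster 5 of libraries 1 and 3. In cluster 3 of libraries 2 and 4 it was at 223 and 510 CPM, and the naive list also differed, as given below. Differences between cultures and between their states therefore cannot be fully told apart in these ratios. Tcf7l1 stayed higher in the same library of each pair, by ratios that were in part smaller than over all cells, where library 3 over 1 gave 1.83 and library 4 over 2 gave 1.80. In cluster 1 it was 1.92-fold (1.85 to 1.99) higher in library 3 than in library 1, and in cluster 5 it was 1.41-fold (1.28 to 1.55) higher. Library 4 was 1.48-fold (1.29 to 1.68) above library 2 in cluster 2 and 1.58-fold (1.51 to 1.66) above it in cluster 3. Cluster 2 of library 4 has only 231 cells, with a median of 15149 UMIs against 21780 in library 2, which limits all ratios in it. Libraries 1 and 4, which set the 2.71-fold range, shared no cluster of at least 100 cells, so that range has no value within a cluster. The naive genes named beside Tcf7l1 were mostly lower in the library of each pair that had more Tcf7l1. So was the whole naive list, which includes them, so this is not particular to them. Its sums were 1819 against 2043 CPM in cluster 1 and 526 against 554 CPM in cluster 5 (library 3 against library 1). They were 1657 against 1849 CPM in cluster 2 and 347 against 482 CPM in cluster 3 (library 4 against library 2). In the order of cluster 1, cluster 5, cluster 2 and cluster 3, the ratios of these pairs were 0.94, 0.90, 1.14 and 0.59 for Esrrb and 0.83, 0.68, 0.71 and 0.64 for Nanog. Tfcp2l1 had 0.85, 0.76, 0.59 and 0.45, Klf2 0.94, 0.92, 0.79 and 0.48, and Nr5a2 0.89, 0.98, 0.79 and 0.54. All these ratios were below 1 except that of Esrrb in cluster 2 (1.007 to 1.29), and those of Esrrb and Nr5a2 in cluster 5 had intervals that included 1. The ratios of these naive genes in cluster 1 were closer to 1 than those in cluster 3, which compares another pair of libraries. A relation of these ratios to the Tcf7l1 level was not tested. Over all genes the median log2 ratio of these pairs lay between -0.03 and 0.04. Sp5 was 2.13-fold (1.96 to 2.32) higher in library 3 than in library 1 within cluster 1 and 2.76-fold (2.10 to 3.68) higher within cluster 5. Library 4 over library 2 gave 0.36 (0.17 to 0.69) for Sp5 in cluster 2, on 9 UMIs, and 0.83 (0.70 to 0.99) in cluster 3.

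Lef1 behaved otherwise. Library 3 was 1.67-fold (1.52 to 1.84) above library 1 in cluster 1 but 1.17-fold (0.99 to 1.38) in cluster 5. Library 4 did not differ beyond counting error from library 2 in cluster 2 (0.97, 0.77 to 1.21) and was lower in cluster 3 (0.69, 0.65 to 0.72), although its level over all cells was the higher of the pair. Library 4 had 48.2% of its cells in cluster 3, and library 2 had 18.4%. Axin2 was also lower in library 4 within cluster 3, at 5.44 CPM against 10.03 CPM in library 2 (0.54, 0.47 to 0.62). Tcf7l2 ratios were 0.91 (0.83 to 0.999) in cluster 1 and 1.16 (1.004 to 1.34) in cluster 5 for library 3 over library 1, although over all cells library 3 was 1.43-fold the higher. For library 4 over library 2 they were 1.27 (0.92 to 1.71) in cluster 2 and 1.20 (1.08 to 1.34) in cluster 3. Tcf7 ratios lay between 0.85 and 1.09 in the 4 shared clusters and Ctnnb1 ratios between 0.89 and 1.02.

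A comparison that does not use clusters ordered the cells of each library by the summed share of the 10 naive genes in their UMIs and cut them into 5 equal bins (quintiles), the lowest of which was set against the highest. Lef1 was the 1 member at least 1.5-fold higher in the lowest quintile in all 4 libraries, where 8.12% of 11882 tested genes were higher and 2.12% lower. No member was lower in all 4. The median log2 ratio of the members was 0.30, 0.32, 0.24 and 0.24 in libraries 1 to 4, against 0.05, 0.10, 0.16 and 0.11 over all genes tested.

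In library 1, Lef1 stood at 9.09, 6.33, 5.05, 3.68 and 3.85 CPM from the lowest to the highest naive quintile, a ratio of lowest to highest of 2.36 (1.90 to 2.95). In library 2 it stood at 61.7, 32.8, 24.04, 18.2 and 17.3 CPM, a ratio of 3.56 (3.26 to 3.89). In library 3 it stood at 17.4, 12.7, 8.86, 7.55 and 6.11 CPM, a ratio of 2.86 (2.42 to 3.38). Lef1 was lower at each step towards the naive end, apart from the last step in library 1. In library 4 it stood at 42.99, 45.2, 38.4, 23.3 and 18.4 CPM, a ratio of 2.33 (2.12 to 2.57), with the upper levels in the first 3 quintiles. Ordering the cells by the formative list gave larger ratios between its ends (formative-highest over formative-lowest quintile), of 4.39, 8.37, 4.92 and 6.62. The lowest naive quintile was made up of different states: 95.3% of it was cluster 5 in library 3, and 80.4% and 96.0% of it was cluster 3 in libraries 2 and 4. With cluster 5 left out, the Lef1 ratios were 1.80, 3.58, 2.03 and 2.35.

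Tcf7 had ratios of 1.31, 1.49, 1.33 and 1.33, all above 1 and below 1.5. Between the ends of the formative order its ratios were 1.31, 1.57, 1.74 and 1.55, past 1.5 in 3 of the 4 libraries. Without cluster 5 its ratios became 1.09, 1.503, 0.99 and 1.36. The lean was then smaller in library 1 and absent in library 3, and library 2 just passed 1.5. Tcf7l2 had a ratio of 4.08 (3.46 to 4.83) in library 3, from 23.7 CPM in the lowest quintile to 5.80 CPM in the highest, but 1.23, 1.25 and 1.35 in libraries 1, 2 and 4. Without cluster 5 the library 3 ratio was 1.10 and the library 1 ratio 0.68. Between the ends of the formative order the Tcf7l2 ratios were 1.42, 1.14, 1.30 and 0.84, so library 3 no longer stood out and library 4 turned. The keratin and contractile list was at 3572 CPM in the lowest quintile and 64.7 CPM in the highest quintile of library 3.

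Tcf7l1 passed 1.5-fold in neither direction, with ratios of 0.94 (0.86 to 1.02), 1.21 (1.13 to 1.29), 0.83 (0.78 to 0.88) and 1.18 (1.12 to 1.24) in libraries 1 to 4. Its lowest level in any quintile of library 4 was 80.1 CPM, above its highest in any quintile of the other libraries, 61.1 CPM. Between the ends of the formative order its ratios were 1.11, 1.36, 1.09 and 1.33, all above 1, so the direction turned in libraries 1 and 3. None of these passed 1.5, whereas the range between libraries was 2.71-fold. Ctnnb1 had ratios of 1.09 to 1.18.

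Axin2 went in opposite directions, with a ratio of 1.63 (1.39 to 1.93) in library 2 and 0.61 (0.50 to 0.73) in library 3. Its ratios in libraries 1 and 4 had intervals that included 1. Sp5 was lower in the lowest quintile of library 4, at 1.30 CPM against 5.44 CPM in the highest, a ratio of 0.24 (0.17 to 0.34), and of library 2, with a ratio of 0.56 (0.46 to 0.68). In library 1 the Sp5 ratio was 1.53 (1.20 to 1.96). The levels of Sp5 did not run evenly over the quintiles, and in library 4 the middle quintile was the highest, at 5.73 CPM. Between the ends of the formative order, Axin2 had ratios of 1.02, 1.98, 0.68 and 1.20 and Sp5 of 1.14, 0.58, 0.73 and 0.25.

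**Figure D3:**
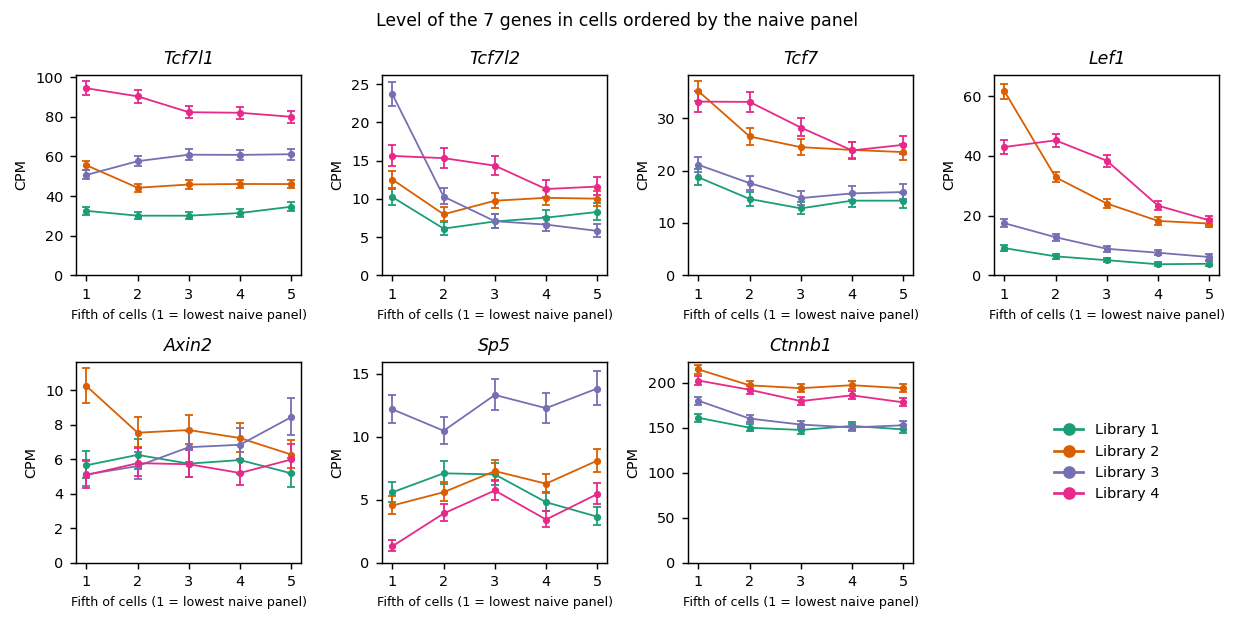
Level of each gene in CPM (y axis from 0) in quintiles of the cells of each library (colour) ordered from the lowest (1) to the highest (5) naive list share, with exact 95% Poisson intervals. Lef1 is lower in the last than in the first bin of every library, Tcf7l1 varies less within a library than between libraries 1 and 4, and Tcf7l2 is raised in the lowest quintile of library 3 (23.7 CPM).

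The make-up of the Tcf/Lef family differed between states and between libraries. Counts of 3′ tags do not grow with transcript length, but genes can differ in capture, so shares are compared between cells and not read as amounts of protein. Tcf7l1 gave 52.7%, 41.4%, 59.7% and 53.1% of the UMIs of the 4 factors in libraries 1 to 4, the largest share in each. The one combination in which another factor matched it was cluster 3 of library 2, where Lef1 gave 36.7% (35.5 to 37.9) and Tcf7l1 35.0% (33.8 to 36.1). In cluster 1 the Lef1 share was 8.72% in library 1 and 9.27% in library 3, and in cluster 5 it was 14.6% and 14.4%. Cluster 2, also high in the naive list, had 22.7% in library 2 and 17.9% in library 4. Cluster 4 of library 4 had 18.1%. The gap between cluster 3 of library 2 and cluster 1 therefore mixes library and state. Tcf7l2 gave 19.5% and 19.1% of the family in cluster 5 of libraries 1 and 3, compared with 12.1% and 7.02% in cluster 1 of the same libraries. Tcf7 gave 24.8%, 23.2%, 17.6% and 17.7% over all cells of libraries 1 to 4. Intervals are exact binomial ones.

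**Figure D4:**
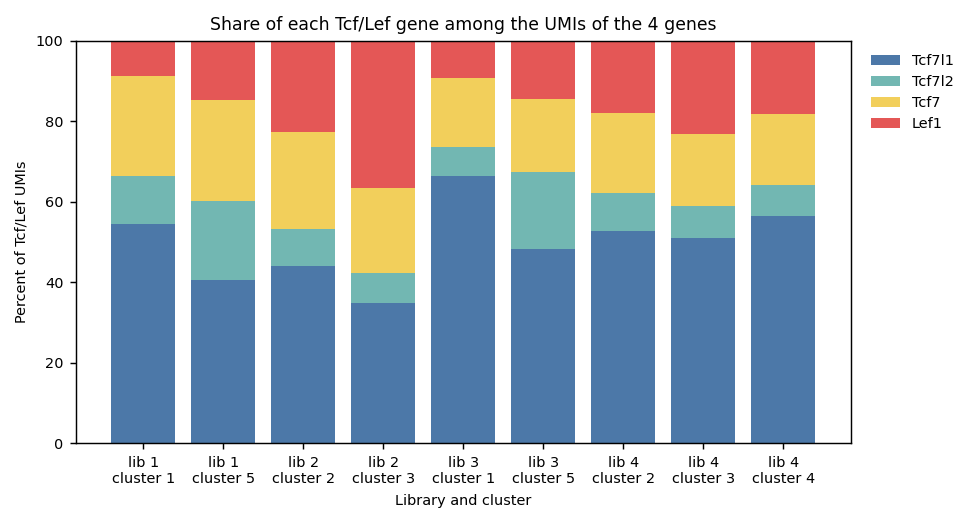
Share of each factor among the UMIs of Tcf7l1, Tcf7l2, Tcf7 and Lef1 (y axis, percent) in the 9 combinations of library and cluster (x axis). Tcf7l1 has the largest segment except in cluster 3 of library 2, where Lef1 has 36.7%, and Tcf7l2 is widest in cluster 5 (19.5% and 19.1%).

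In single cells the members other than Ctnnb1 were sparse. After each cell was thinned to 5000 UMIs, which left out 0 cells, Lef1 had a UMI in 2.501%, 12.5%, 4.79% and 13.6% of the cells of libraries 1 to 4. Tcf7l1 had one in 13.8%, 20.03%, 25.02% and 33.3%, and Ctnnb1 in 53.2% to 62.3%. For Tcf7 the shares were 7.10%, 12.2%, 8.17% and 12.7%, and for Tcf7l2 3.79%, 4.94%, 5.14% and 6.06%. Axin2 stayed between 2.67% and 3.66% and Sp5 between 1.89% and 4.92%. Unthinned, the Lef1 shares were 8.27%, 35.8%, 15.5% and 39.5%. No cell type that lacks these genes was present to give the share that free RNA alone would cause, so the shares are not read as shares of expressing cells. Also without thinning, the 1% of cells with the most Sp5 UMIs held 23.8%, 20.5%, 21.2% and 37.5% of them in libraries 1 to 4. This was the largest such share of any member in libraries 2, 3 and 4. In library 1 Lef1 had the larger share, 27.2%. These shares depend on abundance and on the depth of the cells, which was not made equal here. At 701 and 966 UMIs in library 4, Sp5 had 37.5% and Axin2 17.9% in the top 1% of cells.

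The number of thinned cells with a UMI of both genes was compared with the product of their shares. The pairs named here are a selection from all pairs of the members and T. Other pairs also had intervals without 1, such as Tcf7l2 and Tcf7 in cluster 1 of library 1 (1.57, 1.05 to 2.25). Sp5 and T (brachyury, a mesoderm factor and Wnt target) were found together in 10 cells of library 3, 4.07 times the product (1.95 to 7.48), with 8 of these cells in cluster 5. They were found together in 4 cells of library 2 and 3 cells of library 4, and in 0 of 8118 cells of library 1, which allows a share of up to 0.0370% of cells with both UMIs. The product in library 1 was only 0.0035% of cells, below that limit, so the 0 says nothing about this pair. Tcf7 and Lef1 were found together in 158 cells of library 2, 1.22 times the product (1.04 to 1.42), with 1.29 times the product (1.04 to 1.57) in its cluster 2 and 0.97 times (0.75 to 1.24) in its cluster 3. In the other libraries the interval over all cells included 1. The thinned counts are small, and these values are descriptions.

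Across the 9 combinations of library and cluster, the genes with the pattern closest to Lef1 among 9274 genes were Kpnb1 (Pearson r 0.993 of log2(CPM + 1)), Ap1g1 and Btaf1. Lef1 and Tcf7 had an r of 0.97 with each other and of 0.93 and 0.92 with Ctnnb1. Closest to Tcf7l1 were Hist1h2ap (0.97), Gm10076 and Smim4, to Tcf7l2 Bbx (0.98), Afdn and Iffo2, and to Tcf7 Tspan5 (0.99), Celf4 and Sympk. Sp5 was closest to Ube2d3 (0.93), Med6 and Med21, and Ctnnb1 to Inpp5f (0.98), Stx3 and Nmt1. Axin2 had the loosest match, with Bud13 (0.85), Mad1l1 and Polr3c. Points of 1 library share that library and its depth, and with 9 points and this many genes high values arise readily, so no p is given.

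The rest of the pathway was read from lists of its genes in the same naive order. Each count below is of genes past 1.5-fold in all 4 libraries, which 8.12% of all tested genes passed in the higher and 2.12% in the lower direction. Ligands and their secretion factors were mostly too sparse, and 5 of 21 genes had the 50 UMIs over both quintiles that a comparison needed in every library. Of these, Wnt3, Wnt4 and Wls, the carrier that brings Wnt proteins to the cell surface, were at least 1.5-fold higher in the lowest naive quintile in all 4 libraries and 0 were lower. Wnt3 had only 7 to 21 UMIs and Wnt4 17 to 28 UMIs in the highest quintile, so both reached the minimum through the quintile in which they are high, and the count of 3 of 5 says nothing about the list. Wnt4 had ratios of 14.8, 12.02, 54.0 and 13.5 Wnt3 of 8.01, 5.55, 50.6 and 13.6, and Wls of 2.16, 4.34, 15.01 and 6.96. All of them were widest in library 3, where the lowest quintile is mainly cluster 5. Porcn, the other secretion gene of the list, was lower in the 4 cluster contrasts, with ratios of 0.53, 0.64, 0.48 and 0.36 in libraries 1 to 4. It was picked out after its values were seen.

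Among receptors, co-receptors and agonists, 6 of 16 tested genes were higher and 1 was lower. Fzd2, a Frizzled receptor, had ratios of 10.2, 3.67, 14.8 and 5.20, and Fzd3 of 1.57, 4.89, 3.17 and 5.67. The agonist Rspo1 had ratios of 1.53, 5.77, 2.16 and 5.01. Fzd6, Fzd8 and the co-receptor Lrp5 were the other higher genes. Fzd6, with 19 to 28 UMIs in the highest quintile, and in library 1 also Fzd8 and Rspo1, with 34 and 39, reached the minimum through the quintile in which they are high, so the count of higher receptors is in part set by it. Fzd5 ran the other way, at 24.3 against 38.3 CPM in library 1 and 7.84 against 33.5 CPM in library 3, with ratios of 0.64, 0.42, 0.23 and 0.38. Frizzled genes thus did not all lean 1 way along the naive order.

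The destruction complex and the nuclear partners of β-catenin had 0 genes past the fold in either direction in all 4 libraries, of 7 and 13 tested. In the 4 cluster contrasts, 4 of 14, 2 of 15, 5 of 14 and 3 of 13 tested nuclear partners were higher and 1, 4, 1 and 2 were lower in libraries 1 to 4. The shares of all genes in those contrasts were 22.5%, 19.8%, 26.7% and 22.9% higher and 17%, 12.6%, 13% and 15% lower. The list holds too few genes to set these counts apart from the shares. The corepressor Ctbp1 (1.71, 1.80, 1.73 and 1.73) and the β-catenin partner Bcl9 (1.68, 1.59, 1.55 and 1.69) were higher in each, and Tle5 was lower in each (0.38, 0.36, 0.34 and 0.47). These 3 genes were picked out after their values were seen. The destruction complex had 1 of 7, 1 of 8, 2 of 8 and 2 of 8 genes higher and 0 lower. In library 4 this counts Apc2, which reached the minimum through cluster 3 alone, with 76 UMIs against 2 in cluster 2. Its ratio of 1.61 had an interval that included 1 (0.43 to 13.5). The minimum acted likewise on Nkd1 and Nkd2, with 21 to 34 and 10 to 19 UMIs in the highest quintile. Inhibitors had 3 of 9 higher, the intracellular Nkd1 and Nkd2 and the secreted Sfrp2, and 1 lower, the Wnt deacylase Notum. Among 6 tested target genes, a list that shares Nkd1 and Notum with the inhibitors, 1 was higher (Nkd1) and 1 lower (Notum). Notum had ratios of 0.57, 0.18, 0.11 and 0.039, and Nkd1 of 1.89, 3.51, 3.55 and 4.50. Nkd2 had 3.68, 11.8, 4.59 and 7.15, and Sfrp2 2.59, 2.67, 3.16 and 2.07. Notum and Nkd1 thus had ratios on opposite sides of 1, with the limit on Nkd1 given above, and neither Axin2 nor Sp5 was on 1 side in all 4 libraries.

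**Figure D5:**
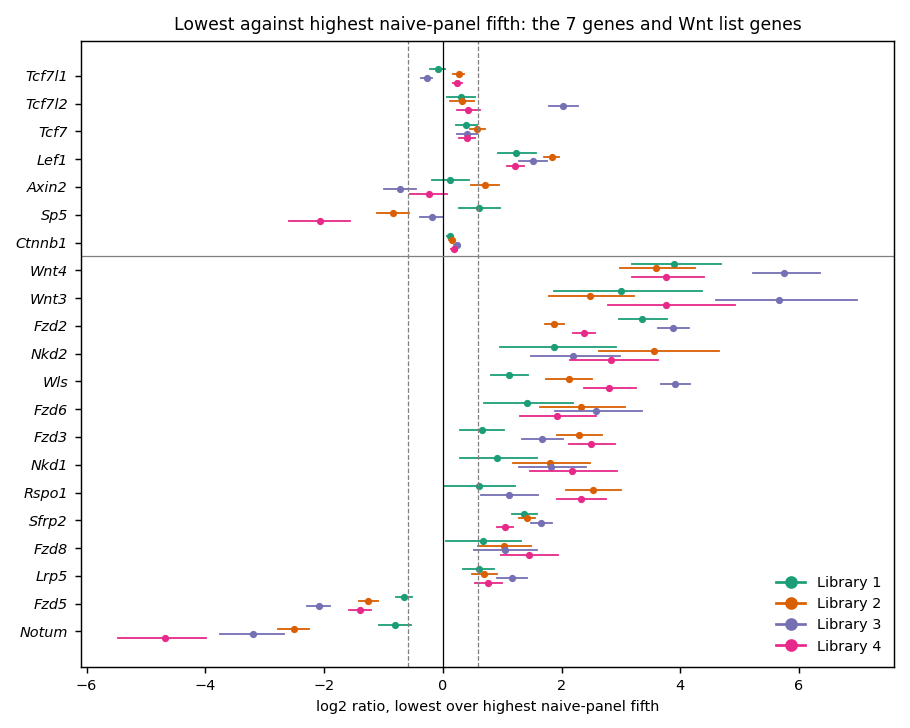
Log2 ratio of the lowest over the highest naive quintile (x axis) with exact 95% intervals in libraries 1 to 4 (colour) for the 7 members (above the line) and for the Wnt list genes past 1.5-fold in the same direction in all 4 libraries (below it). Dashed lines mark 1.5-fold, which Lef1 alone among the members passes in every library, and Fzd5 and Notum lie on the lower side.

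Between libraries, the widest genes of the ligand list were Wnt9a (8.50-fold), Wnt7a (8.23-fold), Wnt4 (7.56-fold) and Wls (7.49-fold), all highest in library 3, among 10 of 11 tested genes past 1.5-fold, which 51.7% of all tested genes passed. Wnt9a and Wnt7a reached the minimum of 200 UMIs through library 3, which held 271 and 119 of their 444 and 202 UMIs, so their place there was in part fixed by the minimum. Of the receptors 14 of 18 passed, led by Rspo1 (3.99-fold) and Fzd2 (3.75-fold), both lowest in library 1 and highest in library 4, and by Rspo3 (2.75-fold) and Fzd1 (2.59-fold), both highest in library 3. The destruction complex had 3 of 8, namely Apc2, Amer1 and Axin1, and the nuclear partners 6 of 14, both below that share. Pygo1 (2.95-fold), the corepressor Tle4 (2.51-fold), Bcl9 (2.06-fold) and Ctnnd1 (1.74-fold) were the widest of the partners. Inhibitors had 9 of 12, with Sfrp1 the widest at 3.21-fold and highest in library 1, while Kremen2 (3.12-fold), Nkd2 (3.06-fold) and Sfrp2 (2.94-fold) were highest in library 4. Target genes had 6 of 9, the 4 widest being Cdx1, Sp8, T and Notum. Sp8, a relative of Sp5, was 7.90-fold higher in library 3 than in library 2, and T was 5.05-fold higher in library 3 than in library 1. Cdx1 had 53, 17, 220 and 5 UMIs in libraries 1 to 4. Sp8 and Cdx1 reached the minimum only with library 3, which held 211 of 396 and 220 of 295 UMIs, so their level there supports nothing further. Notum was 2.74-fold higher in library 2 than in library 3.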

How the data were processed

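The deposited values are UMI counts per gene and barcode, and the file header names Cell Ranger 6.1.2. The authors aligned the 3′ single-cell libraries to mm10 and joined them with the aggregation step, which equalises depth. No columns map libraries to samples. The study's filter was applied here: UMIs and genes at or above the library mean minus 1 SD, and at most 10% mitochondrial UMIs. Clusters came from 2000 variable genes without 27 Wnt genes, 20 components, 20 neighbours and leidenalg 0.10.2 at resolution 0.2. Harmony was not used, so clusters can follow libraries. No doublet caller was run, and cells above 2 times the median UMI count were left out in an alternative. Levels are sums of UMIs scaled to 1000000 (CPM), with exact Poisson intervals for levels and exact conditional intervals for ratios at 95%, computed in scipy 1.17.1. A count of 0 is taken to allow 3 counts, or 0.0150 to 0.0180 CPM. Fold counts needed 200 UMIs between libraries and 50 UMIs over both classes within a library. The members, lists and comparisons were chosen with earlier results of these data known. The 7 members were named in each comparison of levels. From each Wnt list up to 4 of the widest genes past 1.5-fold were named between libraries and between quintiles, and others are named there without values or as picked out afterwards. The closest genes were the 3 with the highest r at a mean of at least 5 CPM. The fold calls were tried on simulated Poisson counts with known changes. Those counts held no spread between cultures or cells and no change near 1.5-fold, so they cannot vouch for the calls in these respects. GENCODE M21 and RefSeq promoters give positions and sequences, and the 7 members all matched. The labels and the methods differ on the hours of growth.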

Additional observations from a re-analysis of the deposited data

How the results depend on the processing

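The count of 5 members past 1.5-fold between libraries was 3 at a fold of 2 (Tcf7l1, Lef1 and Sp5), 5 under 5 other alternatives (all barcodes, size factors, mean over cells, without high-UMI cells, without cluster 5) and 4 to 5 when 1 library was left out. Leaving out library 1 or library 4 gave 4. No share over all genes is given for these alternatives or for those between clusters, so the counts stand without a background. Lef1 alone was higher in the lowest naive quintile under every alternative run, 10 in all, and the count of lower members remained 0. Between clusters, a fold of 2 gave 1 member in library 3 and 0 in library 4, where 2 each had passed, and Lef1 was lost in both. It gave 2 in place of 3 in library 1, where leaving out high-UMI cells gave 4. Resolution 0.4 gave 4 in library 3, where the cluster highest in the naive list then has 526 cells. Cluster 3 against cluster 4, added after seeing the data, gave 1 in library 4. The cause of these shifts was not tested, apart from the stricter fold. Member levels per library moved to between 0.89 and 1.09 times their value under 4 scaling and cell-filter alternatives. Leaving out cluster 5 moved them further, with Tcf7l2 in library 3 going from 11.2 to 6.29 CPM. Shares of cells moved with the depth of thinning, up to 4.28 times without thinning. Sp5 and Axin2 have 701 to 2129 UMIs per library, which limits what small clusters can show. No paired analysis was possible because the library numbers carry no replicate labels.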
